A study of Mus musculus with 8 samples.

Results

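The transcripts described here encode 3 families of RNA-binding proteins that take part in pre-mRNA splicing: the heterogeneous nuclear ribonucleoproteins (hnRNPs, gene symbols starting with Hnrnp), the SR proteins (symbols starting with Srsf, or Sfrs in older annotation) and the proteins of the small nuclear ribonucleoproteins (snRNPs, symbols starting with Snrp). By these name starts, 73 of 25697 probes were members, for 38 of the 16593 named genes: 18 hnRNP, 9 SR and 11 snRNP genes. Where a gene had several probes, the one with the highest mean over the 8 arrays stands for it. Of the 38 genes, 28 reached a log2 intensity of 7.5 on all 8 arrays and 10 reached it on none, so the minimum level used for testing (7.5 on at least 2 arrays) did not sort them by stage. The 28 comprised 9 snRNP, 11 hnRNP and 8 SR genes, with means over the 8 arrays from 7.68 to 12.99.

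The tissue was white fat as it forms in C57BL/6 mice, taken at 4 embryonic stages (e15.5, e16.5, e17.5, e18.5, in days of gestation) and at P0, P2, P5 and P12, in days after birth. No mutant or treatment was involved, and sex and fat depot were not given. Each stage was a single pool on a single Illumina MouseRef-8 array, a bead array read out as probe intensity, with pools of 4 embryos by 1 label and of 3 or more by another. No stage had a replicate. The errors below are therefore standard errors of fitted lines or differences. They hold both the scatter of single pools and any departure of the stages from the fit, which cannot be separated here.

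Introns are removed from new transcripts by the spliceosome, whose snRNPs each hold a small nuclear RNA inside a ring of Sm proteins. SR proteins bind mostly to exons and recruit the spliceosome, while hnRNPs coat the nascent transcript and often keep splice sites from being used. Both families set which exons an mRNA keeps, and in cultured mouse fat cell precursors SR proteins are known to direct splicing choices tied to differentiation, such as those in Lpin1 and in protein kinase C beta.

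All 8 arrays had the same distribution of values, with a median of 6.99, so a change in total RNA cannot be seen. The tissue changed in make-up over the series, and in pooled tissue fewer cells of a type and less RNA per cell cannot be told apart. Of 16 tested adipocyte genes 12 rose over stage, with a list mean of 11.55 at P12, against 8.003 at e15.5. All 20 tested genes of dividing cells fell, with list means of 9.93, 10.12, 9.67, 8.90, 8.35, 8.87, 8.29 and 7.99 from e15.5 to P12. Skeletal muscle markers (22 tested) were high at e15.5 (mean 12.08) and P0 (10.71) and at 7.57 to 8.59 on the other 6 arrays. Epidermal markers (11 tested) averaged 11.30 and 10.43 on the same 2 arrays. They were intermediate at e16.5 (9.21) and P2 (8.65), and at 7.34 to 7.53 elsewhere. Of these 33 muscle and epidermal markers limma called 0 in either direction over stage (0 up and 8 down at an unadjusted p of 0.05). Their median slopes were -0.41 log2 per stage for muscle and -0.36 for epidermis, so the lack of calls does not mean that they held steady. Of 14 tested immune genes 6 rose and 4 fell, of 10 endothelial genes 1 rose, and of 7 erythroid genes 5 fell. What these shifts in make-up contribute to the results below was not tested, except where a covariate is named.

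The first question was which splicing factors changed steadily with stage. Transcripts of the 3 families were mostly lower in later fat: 17 of the 28 tested fell and 1, Snrpn, rose (limma, slope over stage order, Benjamini-Hochberg adjusted p under 0.05 over 7446 features). Over all 7446 features 20.7% fell and 18.3% rose, against 60.7% and 3.57% of the members. The median slope of the members was -0.11 log2 per stage, against -0.00397 for all features, and 25 of 28 slopes were below 0, against 3850 of 7446. By family, 7 of 9 snRNP, 7 of 11 hnRNP and 3 of 8 SR transcripts fell, with median slopes of -0.17, -0.11 and -0.10. On simulated arrays of 7446 features, with 50 given each slope, the fit found 28% of those given 0.1 and 76% of those given 0.2. More features were called in the data, which makes the adjusted threshold less strict, so these shares do not carry over to the members. A slope near 0.1 could still be missed at this number of arrays. Without e15.5 and P0, the arrays with the highest muscle and epidermal markers, 13 members fell and 1 rose, against 1206 and 920 of all features. That setting keeps e16.5 and P2, where epidermal markers were intermediate. Without the P12 array 11 members fell and 0 rose, against 999 and 891 of all features, and 11 of the 17 were called with any 1 array left out. With the mean of the dividing-cell genes as a covariate, a setting added after seeing the data, limma called 0 of 28 members in either direction. It also called 0 of 7446 features in either direction (1 member up and 2 down at an unadjusted p of 0.05). That mean itself followed stage, from 9.93 at e15.5 to 7.99 at P12, so the fit could hardly separate the 2. The empty result therefore does not show what part dividing cells had.

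**Figure D1:**
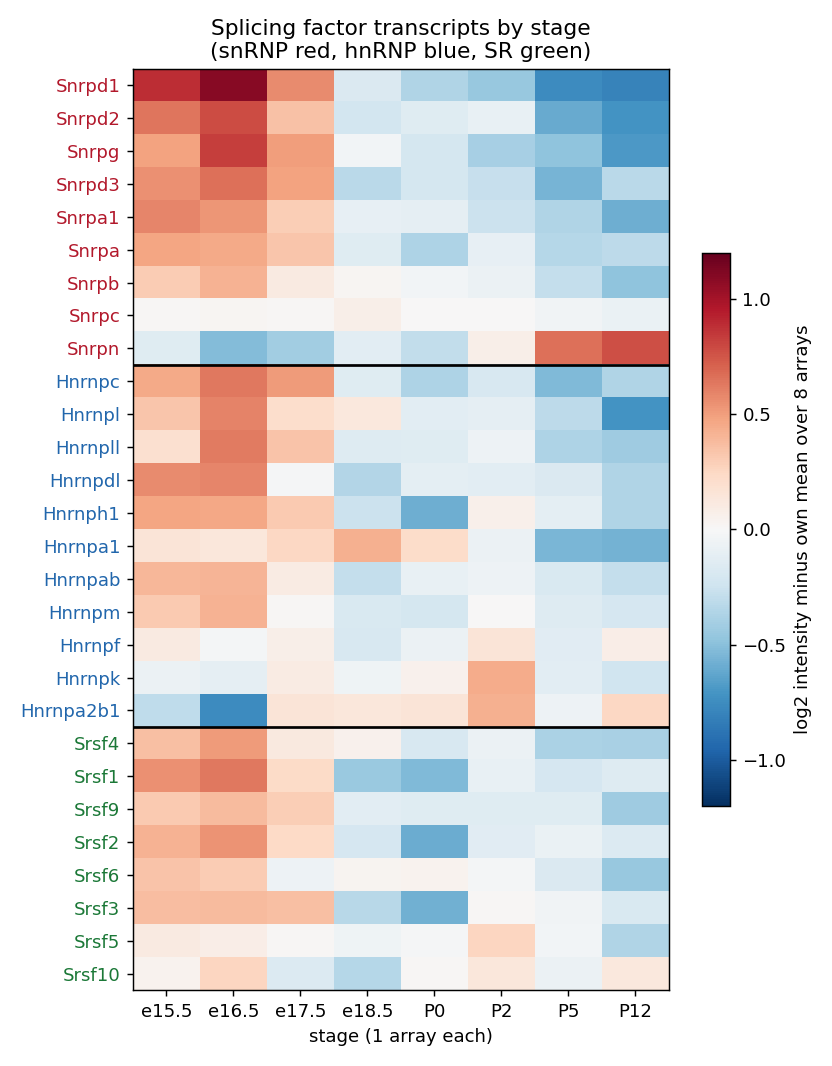
Log2 intensity of the 28 tested splicing factor transcripts on each of the 8 arrays (columns, in stage order), as the difference from the transcript's own mean, with rows grouped by family and ordered by slope. Most rows are above their mean at e15.5 and e16.5 and below it at P5 and P12; Snrpn runs the other way.

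The sequences before the gene starts are shown for the steepest falling member of each family that has a RefSeq window, and for Snrpn, the member that rose. Each line gives the 250 bases before the start, 5' to 3' on the gene's strand, from RefSeq on build GRCm38.p6, and capitals mark matches to searched motifs. The windows are chr7:19149588-19149837 (plus strand), chr14:52104022-52104271 (minus strand), chr4:131873387-131873636 (plus strand) and, at the start it shares with Snurf, chr7:60005200-60005449 (minus strand).
Snrpd2: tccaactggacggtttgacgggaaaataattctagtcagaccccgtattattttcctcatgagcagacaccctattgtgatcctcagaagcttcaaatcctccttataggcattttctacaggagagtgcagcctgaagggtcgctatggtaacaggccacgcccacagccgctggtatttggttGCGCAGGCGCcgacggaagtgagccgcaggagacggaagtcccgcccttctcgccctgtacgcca
Hnrnpc: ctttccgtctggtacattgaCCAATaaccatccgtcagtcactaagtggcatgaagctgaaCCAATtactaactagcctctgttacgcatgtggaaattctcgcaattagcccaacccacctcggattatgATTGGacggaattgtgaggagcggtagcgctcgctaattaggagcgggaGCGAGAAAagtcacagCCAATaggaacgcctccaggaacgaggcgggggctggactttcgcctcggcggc
Srsf4: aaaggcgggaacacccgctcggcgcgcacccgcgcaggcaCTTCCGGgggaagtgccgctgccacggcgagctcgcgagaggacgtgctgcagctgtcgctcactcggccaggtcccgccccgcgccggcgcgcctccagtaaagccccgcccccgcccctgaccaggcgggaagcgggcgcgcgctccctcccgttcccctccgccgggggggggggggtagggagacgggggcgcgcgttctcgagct
Snrpn: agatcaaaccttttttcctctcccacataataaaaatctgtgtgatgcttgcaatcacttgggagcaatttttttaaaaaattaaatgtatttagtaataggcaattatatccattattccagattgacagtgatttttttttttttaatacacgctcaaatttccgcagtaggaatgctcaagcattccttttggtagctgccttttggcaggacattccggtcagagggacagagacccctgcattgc

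The motifs searched, on both strands, were the CCAAT box (CCAAT), the ETS core (CCGGAAG), an NRF1 motif (GCGCA and GCGC with any 1 base between), an E2F motif (TTTNNCGC) and the TATA box (TATAAA). Snrpd2 held 1 match, to the NRF1 motif. Hnrnpc held 4 CCAAT boxes and 1 E2F motif, and Srsf4 held 1 ETS core. The Snrpn window held no match and 3 CG pairs, against 15 in Snrpd2, 17 in Hnrnpc and 37 in Srsf4. Over the first listed window of each gene (for Snrpn another than the one printed, and with a CCAAT box), 25 of the 28 tested members had one, and 52% of them held a CCAAT box, against 34.5% of 27025 genes. An ETS core was in 20% of members and 7.05% of genes, an NRF1 motif in 12% and 3.86%, an E2F motif in 16% and 4.39%, and a TATA box in 16% and 13%. The 27025 genes are all those with a window, tested here or not. Of the 14 falling members with a window, 6 held a CCAAT box and 1 an E2F motif. An ETS core, an NRF1 motif and a TATA box were each in 2 of them. The median number of CG pairs was 19 in the members' windows and 6 in all windows. A match is a run of letters and not a bound site, and CG-rich windows hold CG-rich motifs more often.

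The snRNP group held the steepest falls. Most of its members are Sm proteins, which form the ring around the small nuclear RNAs. In the sentences below, values are log2 intensities in stage order, from e15.5 to e18.5 for the embryo and from P0 to P12 after birth. Snrpd1, which encodes the ring protein SmD1, stood at 11.58, 11.78, 11.26 and 10.52 in the embryo and at 10.33, 10.24, 9.94 and 9.89 after birth. Its level at P12 was 0.309 times that at e15.5, and it fell by 0.29 log2 per stage (SE 0.03, limma adjusted p = 0.00138), the steepest slope of the 28 members. The 4 postnatal values all lay below the 4 embryonic ones. A separate Snrpd1 probe fell by 0.30 per stage (adjusted p = 0.00116 with every probe tested).

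Snrpd2 (SmD2) was 12.54, 12.68, 12.25 and 11.68 in the embryo and 11.75, 11.81, 11.29 and 11.18 after birth, with a slope of -0.21 (SE 0.03, limma adjusted p = 0.0022). Snrpg (SmG) was 11.16, 11.50, 11.18 and 10.64, then 10.46, 10.28, 10.20 and 9.99, with the same rounded slope of -0.21 (SE 0.03, adjusted p = 0.00213). Snrpd3 (SmD3) was 11.80, 11.91, 11.73 and 10.93, then 11.04, 10.98, 10.69 and 10.93. The change of Snrpd3 lay before birth: e18.5 was 0.80 log2 below e17.5, and the values stayed between 10.69 and 11.04 from there on. Its slope was -0.17 (SE 0.04, adjusted p = 0.00791).

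Snrpb, which encodes SmB, was 11.08, 11.19, 10.88 and 10.80 in the embryo and 10.74, 10.70, 10.48 and 10.29 after birth, and fell by 0.11 per stage (SE 0.02, limma adjusted p = 0.00318). None of its 7 steps between neighbouring stages reached 1.5-fold. The other probe of Snrpb, at 8.15 at P12 and 8.54 at e15.5, did not pass (slope -0.06, adjusted p = 0.0541). All 5 tested Sm transcripts other than Snrpn fell.

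2 members that belong to single snRNPs fell as well. Snrpa1, of the U2 snRNP that binds the branch site, was 9.76, 9.71, 9.46 and 9.07 and then 9.07, 8.91, 8.81 and 8.58. Each later array lay below e15.5, and the slope was -0.17 (SE 0.02, limma adjusted p = 0.00103), with the lowest p of all members. Snrpa, the A protein of the U1 snRNP that binds the start of the intron, was 10.19, 10.17, 10.05 and 9.57 and then 9.35, 9.62, 9.37 and 9.40 (slope -0.13, SE 0.03, adjusted p = 0.00805). A second, dimmer Snrpa probe had a slope of -0.01 and did not pass (adjusted p = 0.81). Snrpc, the C protein of U1, was 7.69, 7.70, 7.69 and 7.75 and then 7.68, 7.68, 7.64 and 7.60 and did not pass (slope -0.01, adjusted p = 0.518); its probe was near the floor, where differences are compressed.

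Snrpn was the member that rose. It is an imprinted gene, read from the paternal copy, and encodes SmN, a relative of SmB known to take its place mainly in brain and heart; the same transcript also encodes the small protein SNURF. Snrpn stood at 8.83, 8.46, 8.56 and 8.85 in the embryo and at 8.68, 9.05, 9.63 and 9.75 after birth, with a slope of 0.16 (SE 0.04, limma adjusted p = 0.015). The change lay late in the series: the 4 embryonic arrays and P0 were between 8.46 and 8.85, and P5 and P12 were the highest. At P12 the level was 1.89 times that at e15.5. Its promoter window, printed above, held none of the searched motifs. The call was lost without the P12 array (adjusted p = 0.0848) and with the epidermal mean as a covariate (adjusted p = 0.0586). A second Snrpn probe stayed below 7.5 and was not tested. Nerve and Schwann cell markers were mostly near the floor, with 2 of 13 on the array tested. Of those 2, the myelin gene Mbp rose (7.93 at e15.5, 10.94 at P5, 10.59 at P12) and the neuronal gene Gap43 fell (8.43, 7.47 and 6.93 on the same arrays). Their part in the Snrpn result was not tested. Some immune and erythroid probes, given below, also changed sharply between P2 and P5, and a shared source with Snrpn was not tested.

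**Figure D2:**
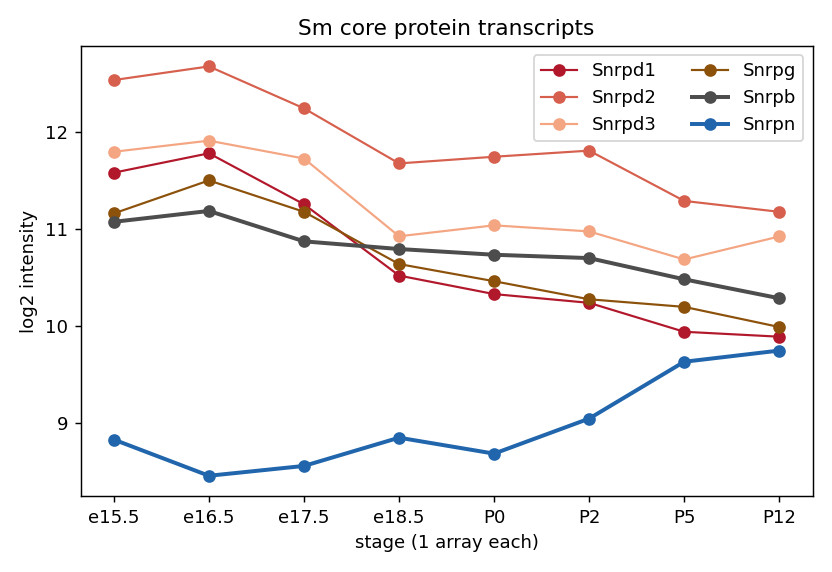
Log2 intensity of 6 Sm core transcripts (vertical axis) at the 8 stages (horizontal axis, 1 array each). Snrpd1, Snrpd2, Snrpd3, Snrpg and Snrpb are all highest at e16.5, whereas Snrpn is lowest there, at 8.46, and highest at P12, at 9.75.

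Because SmN and SmB are alternative subunits, the log2 difference Snrpn minus Snrpb was followed within each array. It was -2.25, -2.73, -2.32 and -1.95 in the embryo and -2.05, -1.66, -0.85 and -0.54 after birth. The difference rose by 0.28 per stage (exact permutation test over the 40320 orders of the arrays, two-sided p = 0.00149, adjusted p = 0.0067 over 6 related pairs). The 2 probes can differ in brightness per molecule, so the size of the difference on 1 array has no meaning, only its change. The slope stayed between 0.24 and 0.35 with any 1 array left out and was 0.22 with the other Snrpb probe, each with an adjusted p under 0.05. A ratio of this kind shows unequal change and not which transcript moved. By their own slopes, given above, Snrpn rose and Snrpb fell. The slope of the difference follows from those 2 slopes, so it is not separate support.

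Among the hnRNPs 7 of 11 fell. Hnrnpc, which packages nascent transcripts and binds runs of uridine, was 13.44, 13.62, 13.50 and 12.85 and then 12.62, 12.80, 12.46 and 12.63. It fell by 0.17 per stage (SE 0.03, limma adjusted p = 0.0071), and its 4 postnatal values all lay below the embryonic ones. A second Hnrnpc probe, 9.18 at P12 and 8.85 at e15.5, had a slope of -0.00083 and did not pass (adjusted p = 0.987). Hnrnpab, which binds single-stranded nucleic acid, was 13.24, 13.25, 12.94 and 12.55, then 12.76, 12.78, 12.66 and 12.55 (slope -0.10, SE 0.03, adjusted p = 0.0198). The Hnrnpab call held in 5 of the 8 fits that left out an array. It was lost with the muscle (adjusted p = 0.0978) and epidermal (0.106) covariates and without e15.5 and P0 (0.101).

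Hnrnpl and its relative Hnrnpll bind CA-rich RNA and control exon choice. Hnrnpl was 12.26, 12.52, 12.14 and 12.05 in the embryo and 11.80, 11.82, 11.61 and 11.21 after birth, and fell by 0.16 per stage (SE 0.02, limma adjusted p = 0.00288). It reached 0.482 times its e15.5 level at P12, the largest such change among the hnRNPs. Hnrnpll was 10.20, 10.63, 10.35 and 9.86 and then 9.87, 9.94, 9.64 and 9.58 (slope -0.13, SE 0.03, adjusted p = 0.0137). In both genes e16.5 was the highest array and P12 the lowest, and without P12 the Hnrnpll call was lost (adjusted p = 0.0528). The dim second Hnrnpll probe, 7.46 at P12 and 7.74 at e15.5, did not pass (adjusted p = 0.0878).

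Hnrnpdl, a relative of the mRNA decay factor AUF1, was 11.12, 11.14, 10.54 and 10.20 and then 10.43, 10.43, 10.38 and 10.19 (slope -0.12, SE 0.03, limma adjusted p = 0.0223). Most of its change came between e16.5 and e17.5, a step of -0.60. Its call held in 5 of the 8 fits that left out an array, and was lost with the muscle (limma adjusted p = 0.112) and epidermal (0.123) covariates and without e15.5 and P0 (0.122). Its second, dim probe had a slope of -0.02 (adjusted p = 0.59). Hnrnpm, which acts as a regulator of exon skipping, lay between 11.81 and 12.44 and was highest at e16.5, with a slope of -0.08 (SE 0.03, adjusted p = 0.0447). That call was close to the threshold, and held in 1 of the 8 fits that left out an array. It was lost with the muscle (limma adjusted p = 0.117) and epidermal (0.154) covariates and without e15.5 and P0 (0.144). Its other 2 probes fell too, by 0.15 and 0.14 per stage (adjusted p = 0.00398 and 0.00843 with every probe tested).

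Hnrnpa1 and Hnrnpa2b1, close relatives that bind similar sequences and often silence exons, did not move together. Hnrnpa1 was 9.31, 9.29, 9.40 and 9.58 in the embryo and 9.38, 9.08, 8.61 and 8.59 after birth. It was highest at e18.5 and lowest at P5 and P12, and fell by 0.11 per stage (SE 0.04, limma adjusted p = 0.0386), a call that held in 3 of the 8 fits that left out 1 array and was lost with the muscle (0.0979) and epidermal (0.104) covariates. Hnrnpa2b1 was 10.35, 9.91, 10.82 and 10.79 and then 10.81, 11.08, 10.60 and 10.90. Its slope of 0.10 did not pass (SE 0.04, adjusted p = 0.104), and its largest step was 0.91 between e16.5 and e17.5. The difference Hnrnpa1 minus Hnrnpa2b1 was -1.04 at e15.5, -0.61 at e16.5 and -2.31 at P12, a slope of -0.21 (exact permutation test, two-sided p = 0.00223, adjusted p = 0.0067 over the 6 pairs). It ranged from -0.25 to -0.18 with any 1 array left out, with adjusted p of at most 0.0393. The other probes of both genes stayed below 7.5, so the ratio could not be followed with a second probe. The slope of the difference follows from the slopes of the 2 genes, so it is not separate support.

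The other 3 tested hnRNPs did not pass. Hnrnph1, which binds G-rich elements, was 11.67, 11.66, 11.51 and 10.94 and then 10.61, 11.26, 11.08 and 10.83 (slope -0.12, SE 0.04, limma adjusted p = 0.0516). Of its 3 further tested probes, 1 fell (slope -0.12, adjusted p = 0.0336) and 2 did not pass. Hnrnpk, a poly(C)-binding protein, was 10.30, 10.27, 10.47 and 10.33 and then 10.43, 10.82, 10.25 and 10.13 (slope -0.0015, adjusted p = 0.971). Hnrnpf, a relative of Hnrnph1, lay between 8.48 and 8.82 (slope -0.01, adjusted p = 0.872).

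Of the 8 tested SR transcripts 3 fell, and a difference in share between the families was not tested. Srsf4 was 10.04, 10.19, 9.79 and 9.73 in the embryo and 9.48, 9.61, 9.30 and 9.29 after birth (slope -0.12, SE 0.02, limma adjusted p = 0.00361). Srsf9 was 10.73, 10.80, 10.72 and 10.30 and then 10.28, 10.27, 10.28 and 9.9985 (slope -0.11, SE 0.02, adjusted p = 0.00623). Srsf6 was 10.44, 10.40, 10.03 and 10.13 and then 10.13, 10.07, 9.92 and 9.65 (slope -0.09, SE 0.02, adjusted p = 0.0104). In Srsf4 and Srsf9 all 4 postnatal values lay below the embryonic ones, and in Srsf6 they overlapped. The Srsf6 call was lost without P12 (limma adjusted p = 0.0623), with the muscle (0.0598) and epidermal (0.066) covariates and without e15.5 and P0 (0.052).

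Srsf1, Srsf2 and Srsf3, widely expressed splicing activators, shared a different shape: high through e17.5, lowest at P0 and higher again from P2. The shape was not theirs alone. Of the 28 members 6 were lowest at P0, among them Hnrnph1 (11.51 at e17.5, 10.61 at P0 and 11.26 at P2). The share of all features lowest at P0 was not counted. The dividing-cell list also dipped there (8.90 at e18.5, 8.35 at P0 and 8.87 at P2), and its part was not tested. Srsf1 was 12.64, 12.72, 12.32 and 11.65 and then 11.56, 12.0045, 11.89 and 11.93 (slope -0.12, SE 0.05, limma adjusted p = 0.0685). Srsf2 was 12.23, 12.35, 12.05 and 11.61 and then 11.21, 11.67, 11.73 and 11.65 (slope -0.10, SE 0.04, adjusted p = 0.0768). Srsf3, the smallest of the classical SR proteins, was 8.64, 8.64, 8.63 and 7.94 and then 7.69, 8.28, 8.22 and 8.08 (slope -0.09, SE 0.04, adjusted p = 0.136). The second probe of each had the same sign, and those of Srsf1 (slope -0.16, adjusted p = 0.0205) and Srsf2 (slope -0.24, adjusted p = 0.008) fell. The second Srsf2 probe differed in shape: its values at P2, P5 and P12 were 10.46, 9.50 and 8.85, where the brighter one stayed between 11.65 and 11.73.

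Srsf5, which in cultured fat cell precursors directs the insulin-driven splicing of protein kinase C beta, did not pass. It was 11.48, 11.45, 11.39 and 11.32 and then 11.36, 11.63, 11.34 and 11.01 (slope -0.04, limma adjusted p = 0.284). Its second probe, designed on another RefSeq transcript, ran differently, at 10.97, 10.47, 11.20 and 11.63 in the embryo and 11.59, 11.71, 11.20 and 11.20 after birth (slope 0.08, adjusted p = 0.244). Between e16.5 and e18.5 the first probe was lower and the second higher, so the gene has no single direction here. Srsf10, which controls Lpin1 splicing in mouse fat cell precursors, was 8.62, 8.84, 8.42 and 8.25 and then 8.60, 8.72, 8.52 and 8.71, lowest at e18.5, and did not pass (slope 0.0032, adjusted p = 0.94).

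**Figure D3:**
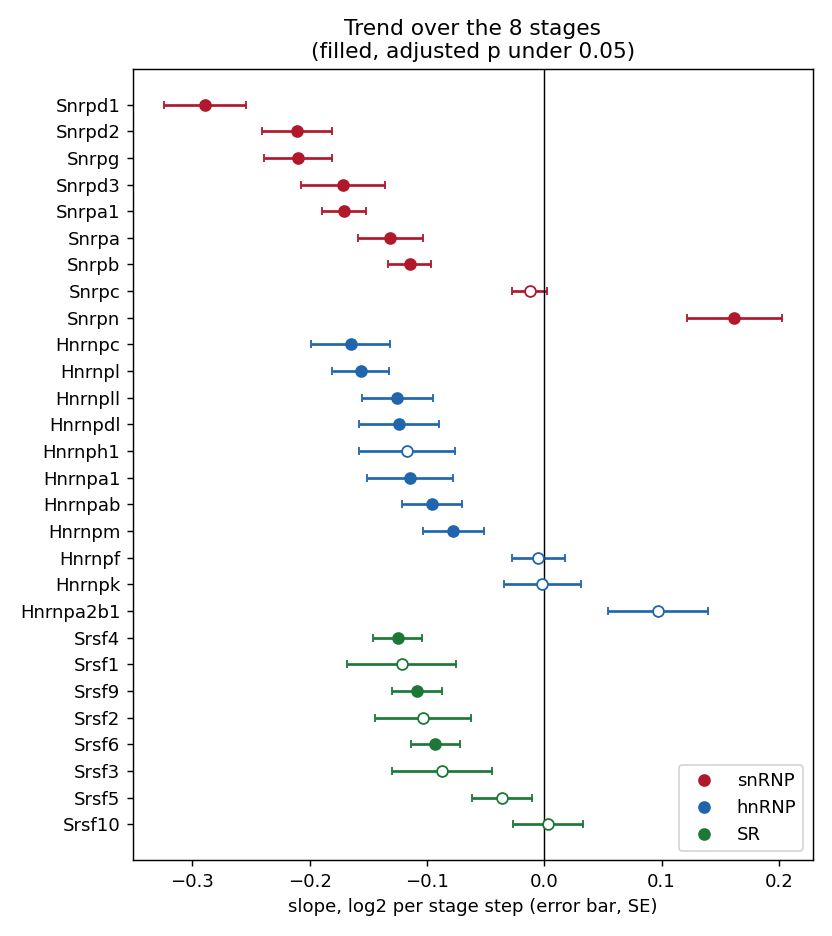
Slope of each of the 28 tested transcripts over the 8 stages, in log2 per stage (horizontal axis; bars are SE), with filled points for adjusted p under 0.05. The 18 filled points are 17 falls, down to -0.29 for Snrpd1, and the rise of Snrpn at 0.16.

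The remaining SR pairs showed no difference in trend that passed. Differences of slope were 0.01 for Srsf9 minus Srsf1 (exact permutation test, adjusted p = 0.765), -0.03 for Srsf4 minus Srsf6 (0.26), 0.06 for Srsf5 minus Srsf6 (0.0609) and 0.11 for Srsf10 minus Srsf2 (0.0778). The pair Srsf10 and Srsf2 passed with either gene's other probe (slopes 0.11 and 0.24, adjusted p = 0.00446 in each), and the pair Srsf5 and Srsf6 with the other Srsf5 probe (slope 0.17, adjusted p = 0.0476). Of the 11 pairs listed, 6 had both genes tested.

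Where genes had more than 1 probe above the minimum level, the probes can be compared directly. The 28 tested genes had 16 further tested probes, on 13 genes, of which 6 fell and 0 rose. With every probe tested, 1892 of all 9387 probes fell and 1812 rose. Of the 16 further probes 14 had the same sign of slope as the brighter probe. Of 8 further probes on genes that had fallen, 3 fell and 5 did not pass. The 3 that fell were those of Snrpd1 and Hnrnpm, with 10.38 or more on average over the arrays. The 5 that did not pass, on Hnrnpc, Hnrnpdl, Hnrnpll, Snrpa and Snrpb, averaged between 7.58 and 9.02.

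**Figure D4:**
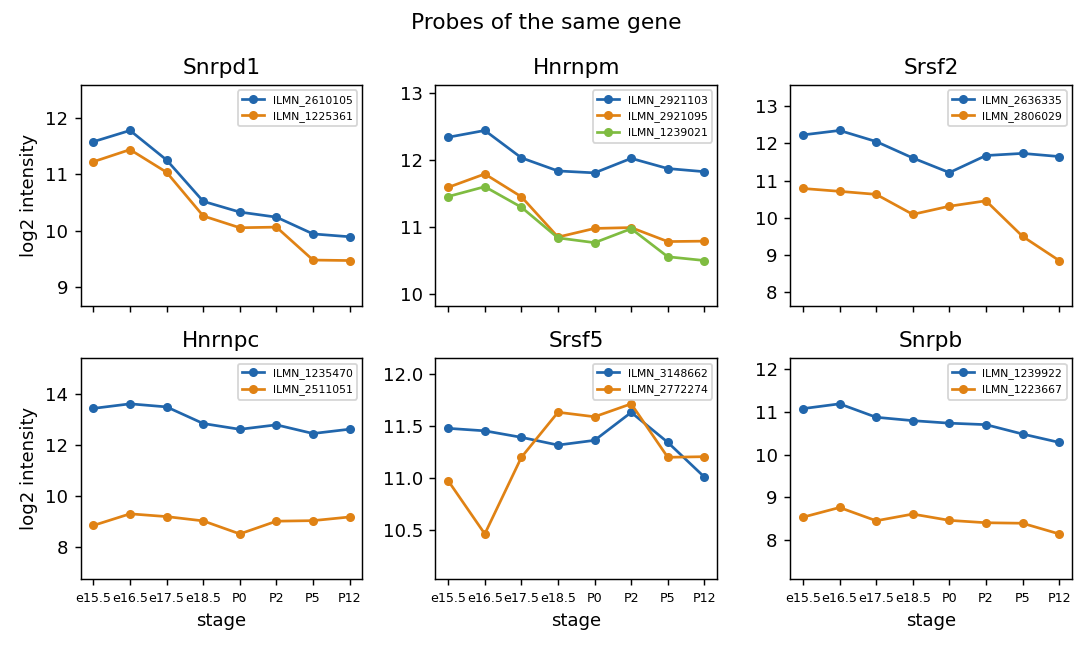
Log2 intensity (vertical axes, each with its own range) at the 8 stages for all probes of 6 genes that reached the minimum level. The probes of Snrpd1 and Hnrnpm run together, the dimmer probes of Hnrnpc and Snrpb are flatter than the bright ones, and the 2 Srsf5 probes part between e16.5 and e18.5.

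The step from stage to stage showed when the levels changed. Steps compare single arrays, so they carry no test, and a difference of 1.5-fold or more was counted. From e15.5 to e16.5 the members' median step was 0.05, against 0.08 over all features, and 10 of 28 members were lower (36.0% of all features). Of the 28 members 17 were highest at e16.5. The share of all features highest there was not counted, so that number is not a trait of the members. By 1.5-fold or more 0 members were lower (5.77% of all features) and 0 higher (4.69%). From e16.5 to e17.5 the median was -0.26, against -0.05 over all features, and 23 of 28 members were lower (57.2% of all features). Hnrnpdl was lower by 1.5-fold or more, against 2.73% of all features, and Hnrnpa2b1 higher, against 5.86%.

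From e17.5 to e18.5 the members' median step was -0.37, against -0.03 over all features, the largest of the 7 steps. The level was lower at e18.5 in 24 of 28 members (54.7% of all features), and in 5 of them by 1.5-fold or more (4.22% of all features), namely Snrpd3, Snrpd1, Srsf3, Srsf1 and Hnrnpc. No member was higher by as much (5.45% of all features). The family medians for this step were -0.47 for snRNP, -0.27 for hnRNP and -0.30 for SR transcripts. The dividing-cell list stood at 8.90 at e18.5 and 9.67 at e17.5, and the skeletal muscle list at 7.57 and 8.36. Their part in this step was not tested.

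The step at birth, from e18.5 to P0, had a median of -0.04, against -0.00478 over all features, with 0 members lower (4.94% of all features) and 0 higher (4.28%) by 1.5-fold or more. From P0 to P2 the median was 0.10, against 0.01 over all features, and 9 of 28 members were lower (47.6% of all features). By 1.5-fold or more, Hnrnph1 was higher (3.42% of all features) and 0 members were lower (3.96%). From P2 to P5 the median was -0.21, against -0.01 over all features, and 25 of 28 members were lower (50.9% of all features). By 1.5-fold or more 0 members were lower (5.98%) and Snrpn was higher (5.21%). The last step, P5 to P12, had a median of -0.07, against -0.02 over all features, with 0 members lower (2.98%) and 0 higher (3.83%) by 1.5-fold or more. No member differed by 2-fold in any of the 7 steps.

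**Figure D5:**
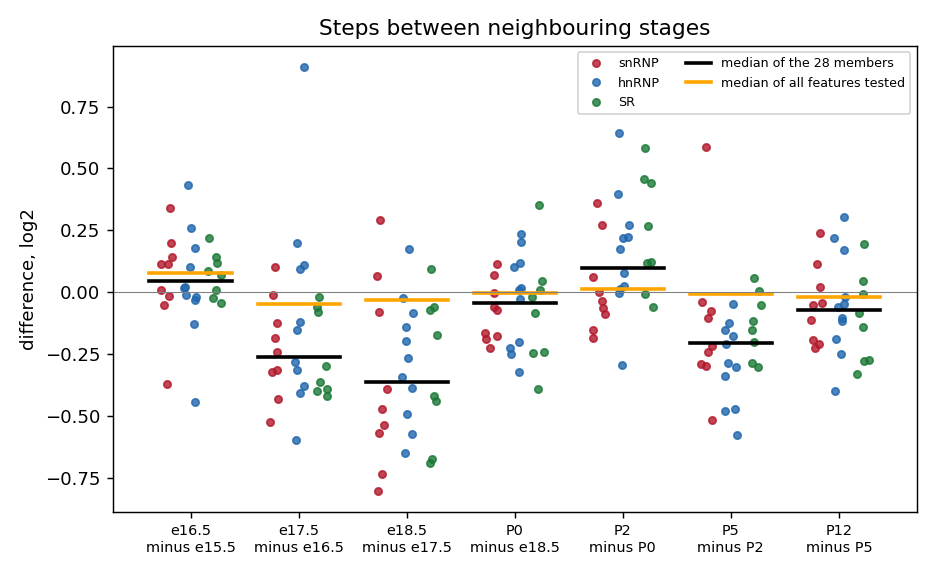
Difference in log2 intensity between neighbouring stages (vertical axis) for each of the 28 transcripts, coloured by family, with the members' median (black bar) and the median of all 7446 features (orange bar). The members' median lies furthest below 0 for e18.5 minus e17.5, at -0.37, and is above 0 for e16.5 minus e15.5 and P2 minus P0.

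The comparison of the 4 postnatal with the 4 embryonic arrays asked which members differed between the periods, and a gradual change would pass it as a jump at birth would. With limma 0 of 28 members passed in either direction at an adjusted p of 0.05, where 0.0134% of all features were higher after birth and 0% lower. At an unadjusted p of 0.05, 15 members were lower (18.4% of all features) and 1, Snrpn, higher (14.5%). The median difference of the members was -0.46 log2, against -0.02 over all features. Each SD below spans 4 different stages, so it holds change within the period as well as scatter of pools. Snrpg averaged 10.23 (SD 0.20) after birth and 11.12 (SD 0.36) before it (n = 4 arrays each), a difference of -0.89 (SE 0.19, limma adjusted p = 0.0538). Snrpd1 averaged 10.10 (SD 0.22) after and 11.29 (SD 0.55) before birth, a difference of -1.19 (SE 0.27, limma adjusted p = 0.0563). In 9 of 28 members every postnatal value lay below every embryonic one, against 10.7% of all features, and in 0 members above, against 8.21%. The 9 were Snrpd1, Snrpg, Snrpa1, Snrpb, Snrpc, Hnrnpc, Hnrnpl, Srsf4 and Srsf9. For Snrpc, near the floor, the margin was small, with 7.68 at P0 and P2 and 7.69 at e17.5. The tested second probes of Hnrnpc and Snrpb overlapped between the periods, and that of Snrpd1 did not. The count of members lower after birth was 18 without the e18.5 array, where 1075 of 7446 features were lower, and 12 with array weights, where 1064 were.

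Curvature, the bend of a profile away from a line, was tested with a quadratic term in stage order. With limma 0 of 28 members passed (0.175% of all features were positive and 0.524% negative). At an unadjusted p of 0.05, Snrpn and Srsf1 were positive, with middle stages below the line (9.47% of all features), and Hnrnpa1 was negative (11.1%). The smallest adjusted p from limma was 0.11, for Hnrnpa1.

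Members that never reached the minimum level were Hnrnpa3, Hnrnpd, Hnrnph2, Hnrnph3, Hnrnpr, Hnrnpu, Hnrnpul1, Srsf12, Snrpb2 and Snrpe. All their values lay between 6.77 and 7.32, at the floor of the array. For 6 of them the array has 1 probe under the symbol, and for Hnrnpul1 all 5 lay below the minimum. Whether these transcripts were scarce or their probes responded poorly was not tested.

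Other parts of the splicing machinery, outside the 3 families, were followed in gene lists. Of the 8 tested Lsm proteins, which form rings akin to the Sm ring, 7 fell and 0 rose, with a median slope of -0.17; Lsm7 (-0.20), Lsm2 (-0.19) and Lsm5 (-0.19) had the largest. Of 13 tested genes of snRNP assembly 10 fell and 0 rose (median -0.09). They included Gemin4 (-0.18) and Smn1 (-0.15), of the complex that loads Sm rings onto RNA, and the arginine methyltransferase Prmt7 (-0.12). Of 26 further spliceosome components 15 fell and 0 rose (median -0.07), led by Sf3b3, of the U2 snRNP, at -0.22, Prpf19 at -0.20 and Prpf3 at -0.15. These counts stand against 20.7% of all features that fell and 18.3% that rose. Over all 7 lists of splicing genes outside the families, limma called 58 of 103 down and 1 up (70 down and 1 up at an unadjusted p of 0.05).

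Of 18 tested RNA-binding proteins near the hnRNPs 13 fell and 0 rose (median slope -0.12), with Ilf2 at -0.20, Pcbp1 at -0.19 and Ptbp1, the polypyrimidine tract-binding repressor, at -0.18. Of 14 SR kinases and SR-related proteins 5 fell and 0 rose (median -0.07). Rnps1 had the largest slope, -0.31, and was 8.27 at P5, after 9.56 at P2. Tra2a fell by 0.22 and Srrm2 by 0.17 per stage. Some probes of the immune and erythroid lists also changed sharply between P2 and P5. Fcer1g went from 10.26 to 6.82, Hbb-bt from 10.06 to 7.33 and Hbb-b2 from 6.90 to 9.33, while Tyrobp changed little (7.99 to 7.82). At P12 the first 3 stood at 6.83, 7.18 and 9.19, so in these probes both P5 and P12 differed from the earlier arrays. Whether the drops of Rnps1 and of the second Srsf2 probe share a source with these was not tested. The same holds for the changes of Snrpn, Hnrnpa1 and other members between P2 and P5. P5 and P12 are also the latest stages, so such a source could not be told apart from stage. Of 13 genes of the exon junction complex and mRNA export 5 fell and 0 rose (median -0.07), led by Alyref at -0.24, Rbm8a at -0.16 and Nxt1 at -0.14. Of 11 regulators known for splicing that differs between tissues 3 fell, Khdrbs1, Rbfox2 and Tial1, and 1 rose, Celf2, against 20.7% and 18.3% of all features; counts this small are near those shares. Celf2 was 10.93 at P12 and 10.34 at e15.5 (slope 0.10, limma adjusted p = 0.00585).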

How the data were processed

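Total RNA from 8 pools, 1 per stage, was amplified to biotinylated RNA for Illumina MouseRef-8 arrays, per the labels' protocols. The deposited log2 intensities for 25697 probes were used as they stand; the log base was read from their range (6.66 to 15.10), and the sources used here do not give the normalization, background treatment or offset. The sorted values of the 8 columns were equal to within 0.00496. A second table of unnormalized signals was not used, because its 16 per-sample columns match no sample label. Of the probes, 23978 had 1 gene symbol in the platform annotation, 0 several and 1719 none. The probe with the highest mean stood for a gene, and features at 7.5 or more on at least 2 arrays were kept (7446).

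Fits used limma 3.58.1 in R 4.3.3 over all kept features, with Benjamini-Hochberg adjustment: a line over stage order 1 to 8 (6 residual degrees of freedom), postnatal minus embryonic arrays, and a quadratic term (5). The trend fit was tested on simulated arrays. Ratios of related members were tested by exact permutation of the array order. Other filters, probes, scalings, weights, covariates and left-out arrays were tried. Every member is named; those given on all 8 arrays are the 7 largest slopes of each family, the smallest, and a fixed set of 6 genes, and from other lists up to 3 genes by slope. Members, lists and pairs were chosen with earlier results of these data known. A probe can also bind transcripts of near-identical copies, which was not examined. Promoter windows are from RefSeq, GRCm38.p6.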

Additional observations from a re-analysis of the deposited data

Results flagged for a closer look

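A single array stood apart from the other 3 of its period in 5 of the 56 sets of 4 values tested. The sets were those of the 28 members before and after birth. In the 5, the gap to the nearest value, over the range of the 4, passed Dixon's critical value. For replicates chance would flag about 1 set in 20, or 2.8 here. The 4 values are different stages and all sets share the same 8 arrays, so that rate does not hold for them. Srsf3 was 7.94 at e18.5, against 8.63 to 8.64 on the other 3 embryonic arrays. Srsf9 was 10.30 at e18.5, against 10.72 to 10.80 on the other embryonic arrays, and 9.9985 at P12, against 10.27 to 10.28 on the other postnatal ones. Srsf2 was 11.21 at P0, against 11.65 to 11.73 on the other postnatal arrays. Snrpc was 7.75 at e18.5, against 7.69 to 7.70 on the other embryonic arrays.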

How the results depend on the processing

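With any 1 array left out, 11 to 19 members fell, 0 to 1 rose, and 0 to 18 were lower and 0 higher after birth; 18 lower came without e18.5 (1075 of all features). All 17 falling members kept a slope below 0 under every planned setting, and at least 12 of them kept their call under each, except without P12 (11). The epidermal covariate left 0 members rising (740 of all features), and 6 lower after birth (428 of all features lower, 387 higher). Array weights gave 12 lower and 1 higher after birth (1064 and 734 of all features). The settings that follow were added after seeing the data, and the cause of their changes was not tested: embryonic arrays only, postnatal arrays only, no e15.5, e16.5 and e17.5, and the dividing-cell covariate each left 0 members falling and 0 rising, with fewer arrays or 1 more term. Over all features these gave 279 up and 91 down with embryonic arrays only, and 0 in the other 3.

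The dividing-cell covariate itself followed stage, so slopes fitted beside it are poorly determined. Slopes that changed sign did so as follows. With the dividing-cell covariate they were 0.139 (Srsf1), 0.132 (Srsf2), 0.171 (Srsf3), 0.0123 (Srsf5), 0.0211 (Hnrnpc), 0.0289 (Hnrnpll), 0.138 (Hnrnph1), 0.0429 (Hnrnpm), 0.0578 (Hnrnpf), 0.0505 (Hnrnpk) and 0.0263 (Snrpa). With embryonic arrays only they were -0.155 (Srsf10), 0.0912 (Hnrnpa1), 0.0276 (Hnrnpk) and 0.0178 (Snrpc). With postnatal arrays only they were 0.0983 (Srsf1), 0.135 (Srsf2), 0.111 (Srsf3), 0.0477 (Hnrnph1), 0.0187 (Hnrnpf) and -0.0203 (Hnrnpa2b1). Without e15.5, e16.5 and e17.5 they were 0.0889 (Srsf1), 0.0593 (Srsf2), 0.082 (Srsf3), 0.026 (Hnrnph1), 0.00423 (Hnrnpm) and 0.049 (Hnrnpf). Slopes near 0 changed sign under other settings: Hnrnpf 0.00495 (muscle covariate), 0.00387 (epidermal covariate) and 0.00834 (without e15.5 and P0), Hnrnpk 0.000294 (median centring) and 0.00634 (epidermal covariate), and Srsf10 -0.00488 (centring on bright features). With 1 array left out, Hnrnpf ranged from -0.0195 to 0.00834, Hnrnpk from -0.0212 to 0.0323 and Srsf10 from -0.0136 to 0.0247.

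Of the ratios, Srsf9 over Srsf1 ranged from -0.0151 to 0.0572 with 1 array left out, Srsf5 over Srsf6 from 0.0483 to 0.0724 and Srsf10 over Srsf2 from 0.0958 to 0.127. The last 2 passed with another probe: 0.174 (Srsf5), 0.112 (Srsf10) and 0.24 (Srsf2). No paired analysis was possible because each stage has 1 sample. Dim probes near 7 limit what can be seen, since differences there are compressed.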
